A study of Mus musculus with 6 samples.

Results

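Cells that handle oxidants carry a shared set of enzymes, and 52 genes of that set were followed in haematopoietic stem cells (HSC) sorted with or without the chemokine receptor CCR2. They are the superoxide dismutases, catalase, the glutathione peroxidases, the peroxiredoxins, the thioredoxin system, the enzymes that make and recycle glutathione, the glutathione transferases, Nqo1 and Hmox1. The rule matched gene symbols in the platform's probe annotation and used no measured value, and the members are 52 of the 22180 genes that have a probe set of their own on the array. One of them, Gpx2-ps1, is listed under a pseudogene symbol. Prdx1, Gsta1, Gsta2, Gstm5 and Gstz1 are read by probe sets shared with another gene, so these 5 are outside the 52 and are given separately.

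The arrays held 3 pools of CCR2-positive and 3 pools of CCR2-negative HSC, sorted by flow cytometry from the bone marrow of C57BL/6J mice. Each pool combined 20 mice, and 5 ng of its RNA was amplified before hybridisation. No treatment or genotype differed between the groups in the labels, and neither the age of the mice, the other gates of the sort, nor whether both groups came from the same mice is stated there. The replicates are called biological in the design. A pool hides the spread between animals, and in bulk RNA fewer cells of a type and less RNA per cell cannot be told apart. Values are log2 signals, and each difference is CCR2-positive minus CCR2-negative (group means, n = 3 pools each), followed by the SE that limma gave it.

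Superoxide dismutases turn superoxide into hydrogen peroxide, which catalase, the glutathione peroxidases and the peroxiredoxins then remove. The peroxidases are recharged by glutathione or by thioredoxin, and both draw on NADPH. Glutathione transferases couple glutathione to electrophiles, and many genes of this set are known targets of the transcription factor NRF2. In the marrow, low levels of reactive oxygen species are a known feature of quiescent HSC, and oxidants are known to push them into cycle.

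The redox genes gave 0 calls at an adjusted p of 0.05 (limma over all 22180 genes, of which 0% were called), and the smallest adjusted p among the members was 0.177. Without adjustment, 10 members had a p under 0.05, or 19.2%, against 12.2% of all genes. Of these, 4 were higher in CCR2-positive pools (Hmox1, Gpx6, Gclc and Gstm3), where 5.63% of all genes were, and 6 were lower (Gstk1, Txnip, Gstm1, Gstt1, Gpx7 and Gsta4), where 6.61% of all genes were. Median centring of the arrays made that split 2 higher and 7 lower. Hmox1, Gpx6 and Gstm3 lie below the median level of all genes. A filter at that level left 36 members, with 1 higher and 6 lower at an unadjusted p under 0.05. Over the 11090 genes it left, 401 were higher and 1123 lower. For 13 members, or 25%, no pool of one group lay within the range of the other, against 18.6% of all genes. Among the 13, 7 were higher and 6 lower, and the shares over all genes were 10.8% and 7.88%. The members had no common direction: 25 were higher and 27 lower, where 56.0% of all genes had a difference above 0. Their median difference was -0.01, against 0.03 over all genes. Differences ran from -0.72 (Gstk1) to 0.53 (Gstp3, with a 95% interval of -0.44 to 1.51).

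**Figure D1:**
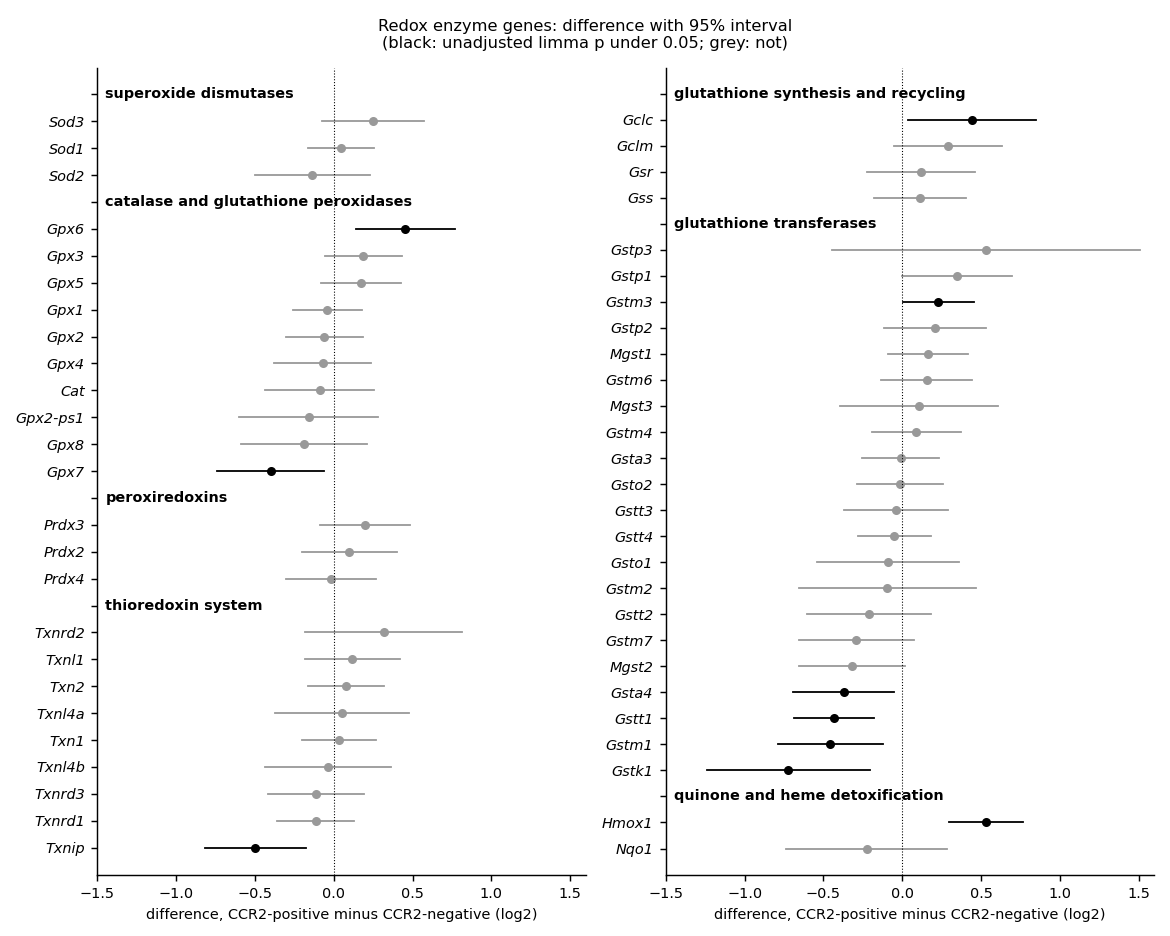
Difference between CCR2-positive and CCR2-negative pools (log2, x axis) for each of the 52 redox enzyme genes, grouped by role, with points for the limma estimate and lines for its 95% interval. Black marks the 10 genes at an unadjusted p under 0.05, which lie on both sides of 0, from -0.72 for Gstk1 to 0.53 for Hmox1.

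The mean over all 52 members was nearly the same in the groups. It was 7.05, 7.12 and 7.04 in the CCR2-positive pools, against 7.01, 7.13 and 7.07 in the CCR2-negative pools. Of 8 lists of lineage markers, several differed more between the same pools. The mean of 13 erythroid markers was 8.83, 9.14 and 8.61 in CCR2-positive pools, against 8.04, 8.49 and 8.49 in CCR2-negative pools, with all 13 higher (median difference 0.51). The mean of 11 stem cell markers was 7.19, 6.92 and 7.27 in CCR2-positive pools, against 7.85, 7.55 and 7.49 in CCR2-negative pools, with all 11 lower (median difference -0.47). Monocyte and macrophage markers were higher for 11 of 13 genes, with list means of 6.17 to 6.62 in CCR2-positive and 5.91 to 6.20 in CCR2-negative pools. Neutrophil markers were higher for 12 of 14, with list means of 6.09 to 7.12 in CCR2-positive and 5.88 to 6.54 in CCR2-negative pools. Basophil and mast cell markers were higher for 5 of 6 genes, with list means of 4.90 to 6.04 in CCR2-positive and 5.15 to 5.37 in CCR2-negative pools. The other lists had median differences of 0.02 (megakaryocyte, 4 of 7 higher), 0.17 (B lymphoid, 4 of 5 higher) and 0.08 (T and NK, 4 of 6 higher). Beside these counts, 56.0% of all genes had a difference above 0. The part of these marker differences in those of single redox genes was not tested. Ccr2 itself was at 6.81, 7.10 and 6.18 in CCR2-positive pools, against 5.64, 6.26 and 5.83 in CCR2-negative pools (adjusted p = 0.274), so replicate 3 of the CCR2-positive pools lay below replicate 2 of the CCR2-negative ones.

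**Figure D2:**
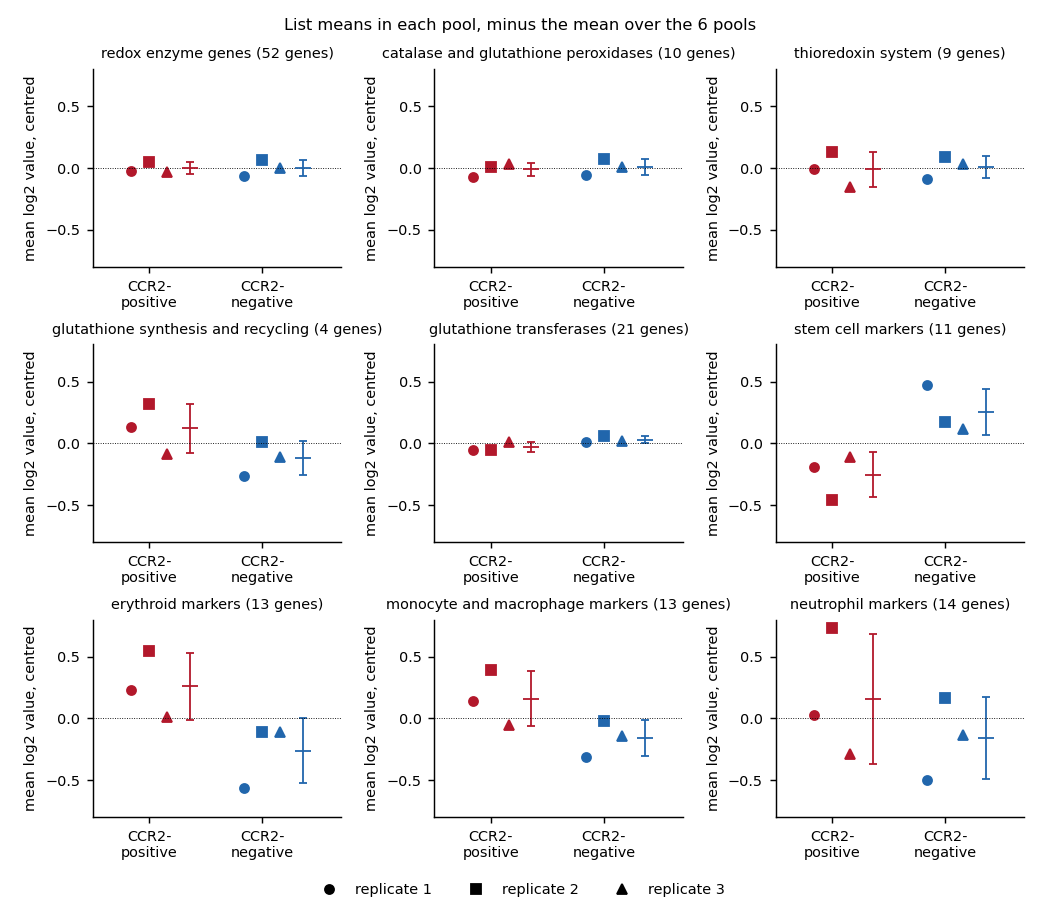
Mean log2 value of each gene list in each pool, minus the list's mean over the 6 pools (y axis), for CCR2-positive pools on the left and CCR2-negative pools on the right of each panel. Symbols are replicates, and the bar is the group mean with its SD (n = 3); the redox list stays within 0.1 of its mean, while the stem cell and erythroid marker lists separate the groups.

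Superoxide dismutases showed small differences. Sod1, the copper-zinc enzyme of the cytosol, was at 11.69, 11.69 and 11.65 in CCR2-positive pools, against 11.62, 11.61 and 11.66 in CCR2-negative pools. Its difference was 0.05 ± 0.09, with a 95% interval of -0.17 to 0.26, and it turned to -0.0033 after a second quantile normalization. Sod2, the manganese enzyme of mitochondria, differed by -0.14 ± 0.16, with its lowest value, 7.95, in CCR2-positive replicate 3. Sod3, the secreted form, had 5.39, 5.42 and 5.79 in CCR2-positive pools, against 5.11, 5.39 and 5.36 in CCR2-negative pools. The Sod3 pools did not overlap, but by a margin that vanishes at 2 decimals, and its difference was 0.25 ± 0.14 (adjusted p = 0.512).

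Catalase and the glutathione peroxidases known for bulk peroxide removal had intervals that held 0. Cat had 8.93, 9.31 and 8.71 in CCR2-positive pools, against 9.11, 9.08 and 9.03 in CCR2-negative pools, a difference of -0.09 ± 0.15. Gpx1, the selenoprotein of the cytosol and mitochondria, had 11.76, 11.84 and 11.79 in CCR2-positive pools, against 11.81, 11.82 and 11.88 in CCR2-negative pools. Its difference of -0.04 ± 0.10 had a 95% interval of -0.26 to 0.18. Gpx4, which reduces lipid hydroperoxides and protects from ferroptosis, differed by -0.07 ± 0.13.

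The peroxidases at an unadjusted p under 0.05 were Gpx6 and Gpx7, and they differed in opposite directions. Gpx7, a peroxidase of the endoplasmic reticulum that acts in protein folding, had 5.93, 6.18 and 6.16 in CCR2-positive pools, against 6.36, 6.79 and 6.32 in CCR2-negative pools. All CCR2-positive pools lay below all CCR2-negative ones, 1.32-fold lower on average (difference -0.40 ± 0.15, adjusted p = 0.339; -0.25 without CCR2-negative replicate 2). Gpx8, the related enzyme of the same compartment, differed by -0.19 ± 0.18 with overlapping pools. Gpx6, known from the olfactory epithelium, had 6.08, 5.70 and 6.17 in CCR2-positive pools, against 5.48, 5.52 and 5.59 in CCR2-negative pools. The pools did not overlap, and the difference was 0.45 ± 0.14 (adjusted p = 0.271). Gpx3, the plasma form, and Gpx5, known from the epididymis, were also higher with no overlap, by 0.19 ± 0.11 and 0.17 ± 0.11 (adjusted p = 0.510 and 0.560). Both were dim, with means over the 6 arrays of 4.78 and 4.36, at percentiles 27.4 and 18.8 of all genes. Of all genes, 10.8% were higher with no overlap. Gpx2, known from the gut, and the pseudogene Gpx2-ps1 differed by -0.06 ± 0.11 and -0.16 ± 0.19. Of the 10 genes of this role, 3 were higher and 7 lower, and 20% were at an unadjusted p under 0.05, against 12.2% of all genes. A filter at the median level of all genes left 5 of the 10, with 0 higher and 5 lower.

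The 3 peroxiredoxins with a probe set of their own gave intervals that all held 0. Prdx3, the mitochondrial one, had 9.42, 9.62 and 9.35 in CCR2-positive pools, against 9.07, 9.36 and 9.35 in CCR2-negative pools. It had the smallest p of the 3, with a difference of 0.20 ± 0.13 (adjusted p = 0.553). Prdx2, an abundant protein of red cells, differed by 0.10 ± 0.13, and Prdx4, the peroxiredoxin of the endoplasmic reticulum, by -0.02 ± 0.13. The Prdx2 difference turned to -0.0073 with 1 pool left out, while the Prdx4 difference changed sign in 6 of 15 alternatives. Of the 3 probe sets that read Prdx1 together with related sequences, 1 averaged 10.77 ± 0.11 in CCR2-positive and 10.78 ± 0.09 in CCR2-negative pools (SD, n = 3 each), a difference of -0.01 ± 0.11. Another differed by -0.02 ± 0.10. The third had 4.78, 4.63 and 4.76 in CCR2-positive pools, against 5.11, 4.92 and 4.90 in CCR2-negative pools, with no overlap and a difference of -0.25 ± 0.10 (adjusted p = 0.468 over all probe sets).

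In the thioredoxin system, 1 of 9 genes had an unadjusted p under 0.05, or 11.1% against 12.2% of all genes, a share near the background. It was the inhibitor Txnip. Txnip binds reduced thioredoxin, restrains glucose uptake and is known to keep HSC quiescent. It had 10.33, 9.96 and 10.33 in CCR2-positive pools, against 10.88, 10.58 and 10.64 in CCR2-negative pools. No CCR2-positive pool reached the lowest CCR2-negative one, and Txnip was 1.41-fold lower (difference -0.50 ± 0.14, 95% interval -0.82 to -0.18, adjusted p = 0.245). A further probe set, shared between Txnip and the overlapping gene Gm15441, averaged 6.61 ± 0.31 in CCR2-positive and 7.02 ± 0.27 in CCR2-negative pools (SD, n = 3 each), a difference of -0.41 ± 0.21. Those pools overlapped: 6.90 in CCR2-positive replicate 3 lay above 6.76 in CCR2-negative replicate 2.

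The thioredoxins themselves had intervals that held 0. Txn1, the cytosolic thioredoxin, had 9.34, 9.48 and 9.38 in CCR2-positive pools, against 9.40, 9.44 and 9.26 in CCR2-negative pools (difference 0.03 ± 0.10, interval -0.20 to 0.27). Txn2, its mitochondrial counterpart, differed by 0.08 ± 0.11. Of the reductases that recharge them with NADPH, the cytosolic Txnrd1 differed by -0.12 ± 0.11 and the mitochondrial Txnrd2 by 0.32 ± 0.22, while Txnrd3, known from the testis, differed by -0.11 ± 0.13. The thioredoxin-like genes Txnl1, Txnl4a and Txnl4b, of which the Txnl4 pair belongs to the splicing machinery rather than to peroxide removal, differed by 0.12 ± 0.13, 0.05 ± 0.19 and -0.04 ± 0.17.

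All 4 genes of glutathione synthesis and recycling were higher in CCR2-positive pools, with a median difference of 0.21. But 1 of them was at an unadjusted p under 0.05, or 25% against 12.2% of all genes, and 0 passed after adjustment. Gclc, the catalytic subunit of the rate-limiting ligase, had 7.92, 7.99 and 7.43 in CCR2-positive pools, against 7.17, 7.61 and 7.23 in CCR2-negative pools. CCR2-positive replicate 3 lay below CCR2-negative replicate 2, and the difference was 0.44 ± 0.18, or 1.36-fold (adjusted p = 0.373). Gclm, the modifier subunit of the same ligase, had 9.27, 9.49 and 9.09 in CCR2-positive pools, against 8.73, 9.15 and 9.10 in CCR2-negative pools (difference 0.29 ± 0.15, adjusted p = 0.473). Gss, which completes glutathione, and Gsr, which regenerates it, differed by 0.11 ± 0.13 and 0.12 ± 0.15. The mean of the 4 was 7.99, 8.18 and 7.77 in CCR2-positive pools, against 7.60, 7.87 and 7.74 in CCR2-negative pools. CCR2-positive replicate 2 was highest and CCR2-negative replicate 1 lowest in this mean, as also in the means of the erythroid, neutrophil, and monocyte and macrophage markers and of the NADPH supply genes. The part of the marker differences in it was not tested. Without CCR2-positive replicate 2, Gsr turned to -0.041 and 3 of the 4 remained higher.

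Glutathione transferases made up the largest role, with 21 genes, of which 8 were higher and 13 lower (median difference -0.04). At an unadjusted p under 0.05, 4 were lower and 1 higher, or 23.8% against 12.2% of all genes. Over all genes, 6.61% were lower and 5.63% higher at that p. None of the transferases passed after adjustment. The 4 lower genes come from 4 classes of the superfamily. Gstk1, the kappa enzyme of mitochondria and peroxisomes, had 6.07, 5.73 and 6.69 in CCR2-positive pools, against 6.89, 7.07 and 6.70 in CCR2-negative pools. It was 1.65-fold lower, the most negative difference of all members (-0.72 ± 0.23, adjusted p = 0.277), although CCR2-positive replicate 3 came within 0.01 of CCR2-negative replicate 3. Gstt1, a theta enzyme, had 6.01, 6.02 and 6.23 in CCR2-positive pools, against 6.60, 6.41 and 6.54 in CCR2-negative pools (-0.43 ± 0.11, 1.35-fold lower, adjusted p = 0.222). Gstm1, a mu enzyme, had 6.86, 6.93 and 7.07 in CCR2-positive pools, against 7.60, 7.11 and 7.53 in CCR2-negative pools. The nearest pools were 0.04 apart, and the difference was -0.46 ± 0.15 (adjusted p = 0.282). Gsta4, the alpha enzyme that clears the lipid aldehyde 4-hydroxynonenal, had 6.76, 6.29 and 6.75 in CCR2-positive pools, against 6.97, 6.99 and 6.96 in CCR2-negative pools. Its CCR2-negative pools lay within 0.03 of each other, above all CCR2-positive ones, and the difference was -0.37 ± 0.14 (adjusted p = 0.347; -0.22 without CCR2-positive replicate 2).

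**Figure D3:**
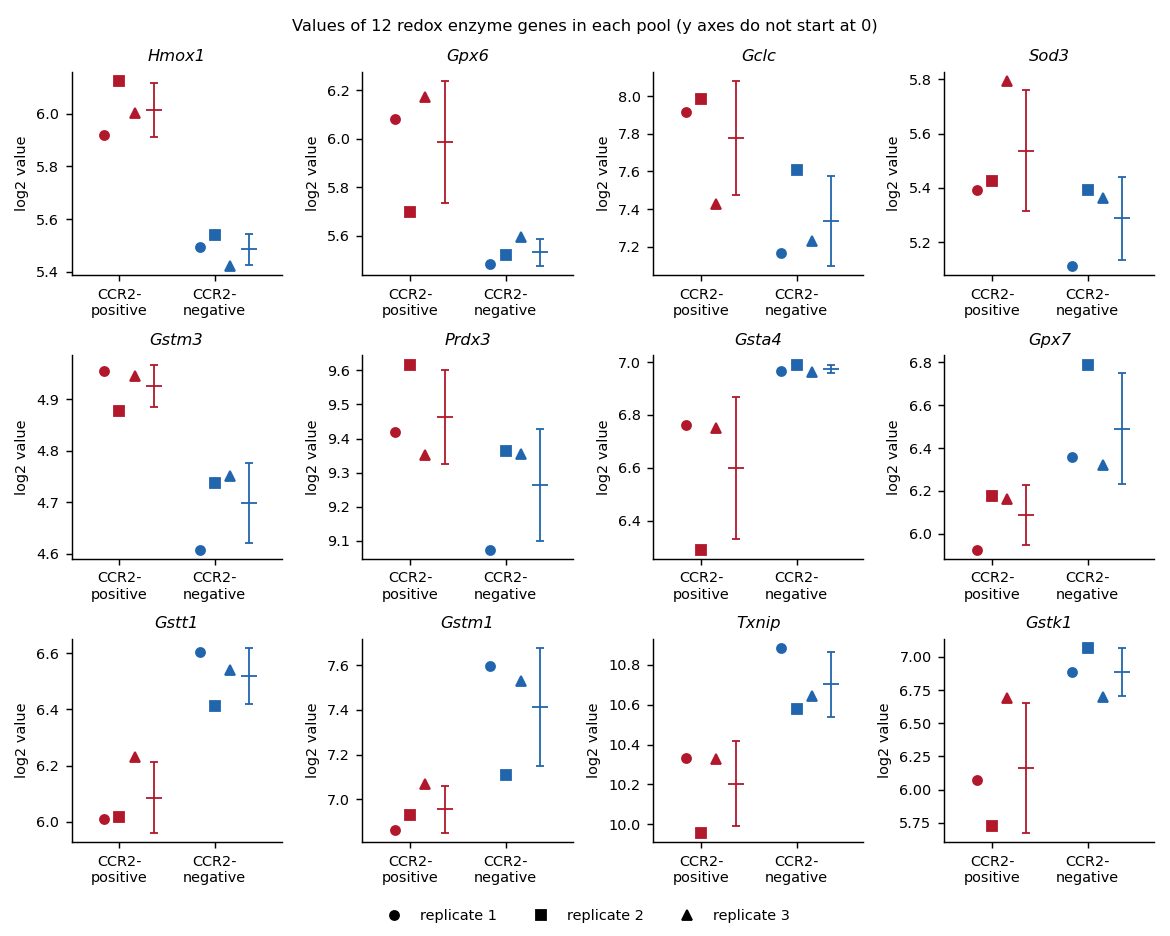
Log2 values (y axes, which do not start at 0) of 12 redox enzyme genes in each CCR2-positive pool (left) and CCR2-negative pool (right), with replicate symbols and the group mean with its SD (n = 3). The panels run from the highest to the lowest difference; Hmox1 leads with 5.92 to 6.12 against 5.42 to 5.54, Gclc and Prdx3 overlap, and Gstk1 ends with 5.73 to 6.69 against 6.70 to 7.07.

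The transferase classes sit in gene clusters, and neighbours in a cluster did not always share a direction. In the mu cluster on chromosome 3, the order of RefSeq genes is Gstm5, Gstm7, Gstm6, Gstm3, Gstm2, Gstm1 and Gstm4. Along it the differences were -0.29 ± 0.16 for Gstm7, 0.15 ± 0.13 for Gstm6, 0.23 ± 0.10 for Gstm3, -0.10 ± 0.25 for Gstm2, -0.46 ± 0.15 for Gstm1 and 0.09 ± 0.12 for Gstm4. Gstm3 had 4.95, 4.88 and 4.94 in CCR2-positive pools, against 4.61, 4.74 and 4.75 in CCR2-negative pools, and its adjusted p was 0.403. Gstm5, read by a probe set shared with a RIKEN clone, averaged 9.68 ± 0.16 in CCR2-positive and 9.34 ± 0.32 in CCR2-negative pools (SD, n = 3 each). These copies resemble each other, and how far their probe sets read each other's transcripts was not tested. In the theta cluster on chromosome 10 all 4 genes were lower, Gstt3 (-0.04 ± 0.15), Gstt1, Gstt4 (-0.05 ± 0.10) and Gstt2 (-0.21 ± 0.17), with 1 of the 4 higher when CCR2-negative replicate 1 was left out.

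The 3 genes of the pi cluster on chromosome 19 were all higher. Gstp1, the main pi transferase, had 11.12, 11.44 and 11.54 in CCR2-positive pools, against 10.81, 11.23 and 11.02 in CCR2-negative pools, a difference of 0.34 ± 0.15 with overlapping pools (adjusted p = 0.411). Its neighbours Gstp2 and Gstp3 differed by 0.21 ± 0.14 and 0.53 ± 0.43. The probe set shared between Gstp1 and Gstp2 had 10.19, 10.39 and 10.36 in CCR2-positive pools, against 9.88, 10.07 and 9.99 in CCR2-negative pools. Here the groups did not overlap, and the difference was 0.34 ± 0.10 (adjusted p = 0.375 over all probe sets). Gstp1 and Gstp2 are near-identical copies, so their probe sets are not separate evidence. All 3 Gstp differences stayed above 0 under each of the 15 alternatives, but 2 of them were much smaller without 1 pool. That of Gstp3 was 0.05 without CCR2-negative replicate 1, and that of Gstp2 was 0.07 without CCR2-positive replicate 3. The other probe sets with shared genes gave -0.56 ± 0.25 for Gstz1 with Pomt2, and differences between -0.15 and 0.13 for those that read Gsta1 and Gsta2. Of the microsomal enzymes, Mgst1 differed by 0.16 ± 0.11 without overlap of the pools, Mgst2 by -0.32 ± 0.15 and Mgst3 by 0.11 ± 0.22. The remaining transferases, Gsta3, Gsto1 and Gsto2, differed by -0.01 ± 0.11, -0.09 ± 0.20 and -0.02 ± 0.12.

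Hmox1 had the largest separation relative to its spread. It encodes the inducible heme oxygenase, which breaks heme into biliverdin, iron and carbon monoxide, and it is known to answer to heme and NRF2 and to be held down by BACH1. Hmox1 had 5.92, 6.12 and 6.00 in CCR2-positive pools, against 5.49, 5.54 and 5.42 in CCR2-negative pools. The groups were clear of each other by 0.38 at the nearest pools, and the difference was 0.53 ± 0.10, or 1.44-fold (95% interval 0.29 to 0.77, adjusted p = 0.177). With each pool left out in turn it lay between 0.47 and 0.58. Macrophages are known for high Hmox1, and 11 of the 13 monocyte and macrophage markers given above were higher in CCR2-positive pools. The pools overlapped in the mean of these markers, with 6.17 in CCR2-positive replicate 3 below 6.20 in CCR2-negative replicate 2. The part of these markers in the Hmox1 difference was not tested. Nqo1, the quinone reductase that is the usual marker gene of NRF2 activity, had 6.32, 6.60 and 5.62 in CCR2-positive pools, against 6.42, 6.50 and 6.30 in CCR2-negative pools (-0.23 ± 0.22). Its value in CCR2-positive replicate 3 was the lowest by far, and without that pool the difference was 0.05.

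**Figure D4:**
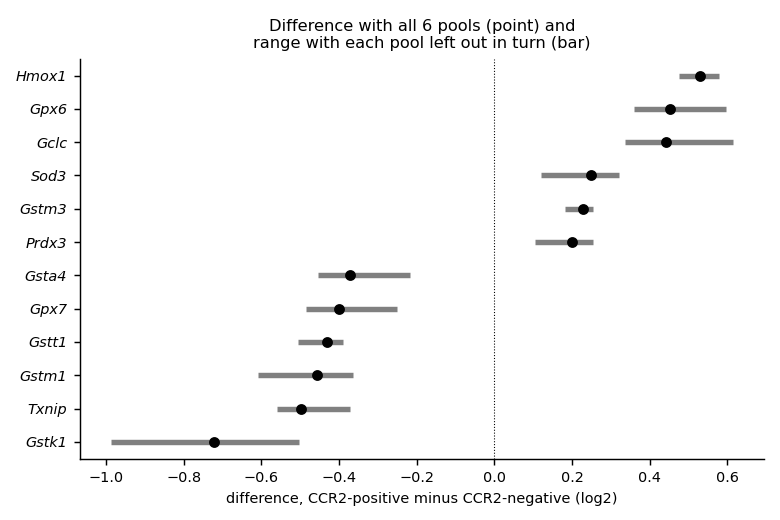
Difference between CCR2-positive and CCR2-negative pools (log2, x axis) for the 12 redox enzyme genes given by pool, with all 6 pools (points) and as a range when each pool was left out in turn (bars). All bars stay on 1 side of 0, which pools that do not overlap fix in advance for every gene here but Gclc and Prdx3. The bar of Gstk1 is the widest, from -0.99 to -0.50, and that of Hmox1 runs from 0.47 to 0.58.

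Promoters were read because NRF2 binds a short element, the antioxidant response element, upstream of many of these genes. RefSeq windows of build GRCm38.p6, from 250 bases before to 50 after each start site, were found for 43 of the 52 members, with 56 windows in all. None was found for Gclc, Gpx2-ps1, Gsr, Gsta4, Gstt2, Hmox1, Sod3, Txnl1 and Txnl4a. A loose form of the element's core, TGANNNNGC with N as any base, was searched on either strand. It occurred in 37.5% of the members' windows, against 41.3% of all 32851 windows. Narrower forms, which fix more of these bases, were not counted. The E-box CACGTG, which reads the same on both strands, occurred in the windows of Gpx6 and Prdx4, or 3.57% of the members' windows against 7.15% of all. The windows below are shown for genes of both directions: Gclm and Gstp1 (higher), Gstt1 and Txnip (lower). Gclm and Gstp1 had overlapping pools and were not at an unadjusted p under 0.05, unlike Gstt1 and Txnip. Capitals mark matches to TGANNNNGC. The Gclm window holds 1 match, which begins 134 bases before the start, the Gstp1 window holds 3 (74 and 9 bases before the start and 29 after it), the Gstt1 window holds 1 (89 bases before), and neither motif occurs in the Txnip window.
Gclm at chr3:122245307-122245606, plus strand: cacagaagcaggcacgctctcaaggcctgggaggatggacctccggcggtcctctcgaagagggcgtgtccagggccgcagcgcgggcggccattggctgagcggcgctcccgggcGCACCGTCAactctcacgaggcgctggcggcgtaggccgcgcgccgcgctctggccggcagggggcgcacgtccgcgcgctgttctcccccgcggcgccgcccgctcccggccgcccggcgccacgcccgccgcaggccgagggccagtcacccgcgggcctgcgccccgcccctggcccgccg
Gstp1 at chr19:4037863-4038162, minus strand: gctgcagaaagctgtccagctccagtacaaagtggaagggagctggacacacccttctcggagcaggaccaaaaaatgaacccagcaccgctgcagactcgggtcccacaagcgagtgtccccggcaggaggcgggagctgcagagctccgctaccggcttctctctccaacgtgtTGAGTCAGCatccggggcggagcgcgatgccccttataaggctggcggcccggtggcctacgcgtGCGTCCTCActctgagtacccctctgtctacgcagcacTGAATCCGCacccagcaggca
Gstt1 at chr10:75797682-75797981, minus strand: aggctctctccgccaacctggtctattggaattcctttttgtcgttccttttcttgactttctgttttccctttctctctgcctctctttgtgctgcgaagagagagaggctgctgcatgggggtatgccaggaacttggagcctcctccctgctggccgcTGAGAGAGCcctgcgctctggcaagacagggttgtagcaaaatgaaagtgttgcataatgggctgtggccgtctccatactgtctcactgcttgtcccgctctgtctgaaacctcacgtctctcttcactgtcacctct
Txnip at chr3:96557707-96558006, plus strand: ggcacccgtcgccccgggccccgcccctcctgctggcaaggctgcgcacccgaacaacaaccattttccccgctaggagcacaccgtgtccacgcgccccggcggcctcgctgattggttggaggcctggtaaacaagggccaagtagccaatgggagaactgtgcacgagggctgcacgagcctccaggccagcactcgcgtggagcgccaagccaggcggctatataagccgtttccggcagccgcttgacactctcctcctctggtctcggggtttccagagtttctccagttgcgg
A match is a run of letters and not a measured binding site. Sequence outside these windows was not searched, so a gene without a match here, such as Nqo1, may carry one farther from its start. Of the genes lower at an unadjusted p under 0.05, Gstk1, Gstm1, Gpx7 and Txnip have no match to TGANNNNGC in their windows and Gstt1 has 1. Of those higher at that p, Gpx6 has 1 and Gstm3 has 2. Hmox1, Gclc and Gsta4 had no window. Gpx3 and Prdx3, higher but not at that p, have none. A link between matches and direction was not tested.

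Other genes of the pathway were read from 8 lists. Among 18 thiol reductases and repair genes, 1 was higher and 3 lower at an unadjusted p under 0.05, or 22.2% against 12.2% of all genes, and none passed after adjustment. The sestrins, stress-induced proteins that restrain mTORC1 signalling, held 3 of these 4. Sesn3 had 6.14, 6.58 and 6.49 in CCR2-positive pools, against 7.54, 7.10 and 7.32 in CCR2-negative pools, 1.88-fold lower (-0.91 ± 0.16, adjusted p = 0.177). Sesn1 had 7.18, 6.92 and 6.91 in CCR2-positive pools, against 7.70, 7.60 and 7.50 in CCR2-negative pools (-0.60 ± 0.12, adjusted p = 0.177). Sesn2 was higher, with 5.40, 5.47 and 5.28 in CCR2-positive pools, against 4.94, 5.09 and 5.03 in CCR2-negative pools (0.37 ± 0.10, adjusted p = 0.243). The pools of none of the 3 overlapped. The fourth gene was Msrb2, a methionine sulfoxide reductase of mitochondria, at -0.34 ± 0.12.

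The regulators in the Foxo, Atm and Hif1a list had 3 of 11 genes lower and 1 higher at an unadjusted p under 0.05. This is 36.4%, against 12.2% of all genes. Sirt3, the mitochondrial deacetylase that activates Sod2, had 6.83, 6.46 and 7.09 in CCR2-positive pools, against 7.48, 7.33 and 7.40 in CCR2-negative pools (-0.61 ± 0.16, adjusted p = 0.227). Hif1a, the factor of the response to low oxygen, differed by -0.46 ± 0.11 and Foxo3, which drives antioxidant genes in HSC, by -0.28 ± 0.11 (adjusted p = 0.207 and 0.350). Foxo6 differed by 0.37 ± 0.13. In the list of NRF2 control, 1 of 10 genes was at an unadjusted p under 0.05, or 10% against 12.2% of all genes. It was Sqstm1, the autophagy receptor that binds KEAP1, at -0.33 ± 0.11. Nfe2l2, which encodes NRF2, differed by 0.26 ± 0.15 and Bach1, the repressor of Hmox1, by -0.40 ± 0.20, both with overlapping pools (adjusted p = 0.512 and 0.455).

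NADPH supply had 2 of 16 genes higher and 0 lower at an unadjusted p under 0.05, or 12.5% against 12.2% of all genes, a share near the background. Both belong to folate metabolism. Mthfd1l, of mitochondria, had 7.88, 8.26 and 8.03 in CCR2-positive pools, against 7.48, 7.56 and 7.51 in CCR2-negative pools (0.54 ± 0.12, adjusted p = 0.183). Mthfd1, of the cytosol, differed by 0.54 ± 0.20 and Mthfd2 by 0.23 ± 0.10 (adjusted p = 0.338 and 0.415). Among 16 genes of cystine uptake and glutathione turnover, 3 were at an unadjusted p under 0.05, or 18.8% against 12.2% of all genes. Slc1a5, a glutamine transporter, was 1.61-fold lower (-0.69 ± 0.17, adjusted p = 0.213). Abcc1, which exports glutathione and its conjugates, differed by -0.34 ± 0.13, and Cbs, of the route from methionine to cysteine, by 0.33 ± 0.12.

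The NADPH oxidase list, a source of superoxide, had Rac2, a GTPase of blood cells, lower (-0.47 ± 0.16, adjusted p = 0.306) and Ncf1, its p47phox subunit, higher (0.24 ± 0.10, adjusted p = 0.387). Both were at an unadjusted p under 0.05, or 16.7% of 12 genes against 12.2% of all genes. Duox1 differed by 0.14 ± 0.12. Cybb, the catalytic subunit of phagocytes, was singled out after its values were seen. It had 4.99, 6.51 and 4.48 in CCR2-positive pools, against 4.88, 4.97 and 5.19 in CCR2-negative pools, so 1 pool was high, the same that led in the neutrophil and monocyte marker means. For heme breakdown and iron, 3 of 5 genes were higher and 2 lower, with 1 in each direction at an unadjusted p under 0.05, or 40% against 12.2% of all genes. These were Slc40a1, the iron exporter ferroportin, at 0.48 ± 0.18 and Blvra, a biliverdin reductase, at -0.35 ± 0.15. Hmox2, the constitutive heme oxygenase, differed by -0.31 ± 0.14, opposite in sign to Hmox1. Of 9 genes for selenoprotein synthesis, needed for Gpx1 and Txnrd1, 8 were lower and 0 were at an unadjusted p under 0.05. Pstk differed by -0.31 ± 0.18, Secisbp2 by -0.14 ± 0.09 and Trnau1ap by -0.25 ± 0.17. This count became 6 of 9 after a second quantile normalization and 5 of 9 without CCR2-positive replicate 3 or without CCR2-negative replicate 3.

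**Figure D5:**
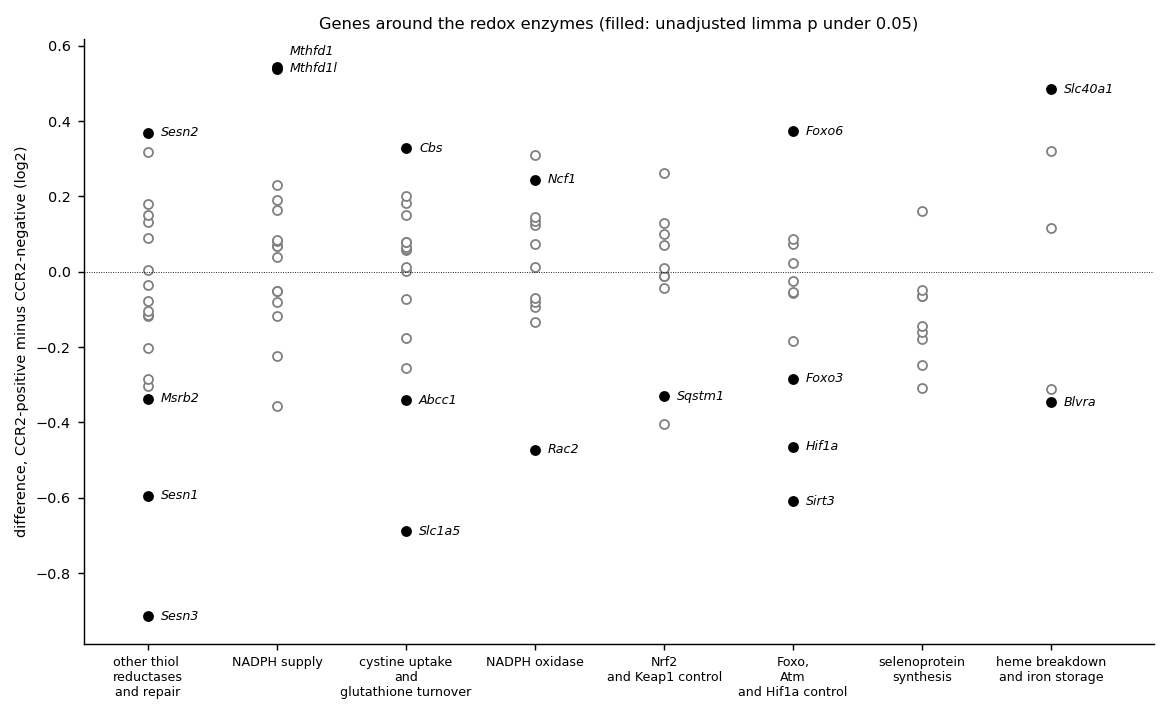
Difference between CCR2-positive and CCR2-negative pools (log2, y axis) for each measured gene of 8 lists around the redox enzymes (x axis), 1 point per gene. Filled, named points are at an unadjusted limma p under 0.05; they run from Sesn3 at -0.91 to Mthfd1 at 0.54.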

How the data were processed

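The deposited table held log2 values for 41345 probe sets on 6 arrays, made with RMA per the submitters' processing notes. No version or setting of RMA is stated there, and detection calls and raw intensities were not used here. RMA equalises the arrays, so differences are relative to the other genes of an array, signal over background is unknown, and the number of arrays limits the precision. The values ran from 2.39 to 13.3, and array medians from 5.48 to 5.58. Genes came from the platform annotation: 23521 probe sets named 1 gene, 1814 several and 16010 none. The probe set with the highest mean over the 6 arrays stood for each of 22180 genes, of which 21994 matched a RefSeq gene number. No column belonged to another sample.

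CCR2-positive pools were compared with CCR2-negative pools by limma 3.58.1 in R 4.3.3 (lmFit, eBayes, no covariate), with Benjamini-Hochberg adjustment over all genes, and the fit was tested on simulated data. Each p-value sets the difference against the spread between pools, which eBayes draws toward that of all genes. It does not speak to the spread between animals. Values by pool are given for members with an unadjusted p under 0.05 whose pools do not overlap and for the smallest p of each role, with those of some other members added; each pathway list gives its genes under that p and its 3 smallest. The members and lists were chosen with earlier results of these data known. Same-numbered pools deviated together at r = 0.035, 0.089 and 0.045 over genes, so replicate numbers were not taken as pairs. Alternatives were 2 filters on dim genes, 3 normalizations, the replicate block, trend and robust eBayes, array weights, averaging over probe sets and leaving out each pool.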

Additional observations from a re-analysis of the deposited data

How the results depend on the processing

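No member passed an adjusted p of 0.05 with limma under any of the 15 alternatives, including each pool left out in turn (0 to 0). Over all genes the adjusted calls were 0 with all pools and 2 without CCR2-positive replicate 1, neither of them a member. Among the members, 10 had an unadjusted p under 0.05 with all pools. That count ran from 6 (without CCR2-negative replicate 1) to 12 (without CCR2-positive replicate 3) with 1 pool left out, and was 11 with the replicate block, of which 9 were among the 10. The median difference of the members, -0.0125 with all pools, ran from -0.0211 to 0.0653 with 1 pool left out, the highest without CCR2-positive replicate 3. It changed sign under several alternatives, to 0.0080 with a second quantile normalization, 0.0125 with cyclic loess and 0.0376 with array weights, so no direction is read from it. The 12 members that the naming rule gave by pool kept their direction in all 176 combinations run. For all of them but Gclc and Prdx3 the pools did not overlap, so leaving out a pool could not reverse the direction. The rule also chose them by their p and pools in these same data, so this count is no separate evidence. Gstm3 had an unadjusted p under 0.05 in 3 of its 14 alternatives, and Gclc and Gsta4 in 10 of 15. Of the 52 members, 34 kept their direction throughout and 18 changed sign under at least 1 alternative. The filter at the median level left 36 members and removed, among those given by pool, Gpx6, Gstm3, Hmox1 and Sod3. Nothing in the labels says that the replicate numbers pair the pools. What limits these values is the number of pools and the unknown signal over background.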
